A study of Mus musculus with 6 samples.

Results

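The ubiquitin-conjugating enzymes, or E2s, of the mouse were examined as the 36 measured genes whose symbol starts with Ube2, out of 23185 named genes on the array. The members were chosen by symbol alone, so 2 of the 36 are not E2 enzymes: Ube2cbp, also named Ube3d, encodes a ligase that binds Ube2c, and Ube2d-ps is a pseudogene-derived non-coding RNA in RefSeq. Expression was measured with Affymetrix Mouse Gene 2.0 ST arrays in hematopoietic stem cells (HSCs), sorted in 2 rounds as CD150+CD48-LSK cells from the bone marrow of young mice. The Merit40-/- group held 3 arrays and the WT group 3 arrays. The cells of both groups were freshly isolated and untreated, and the labels give neither the sex nor the number of mice behind an array, nor how the Merit40 allele was made. The sample titles call the arrays of each group biological replicates. As the mice behind an array are not given, the p-values below rest on the spread between these arrays. In limma, unless stated, that spread is pulled toward that of the other genes.

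An E2 takes activated ubiquitin from an E1 enzyme onto its catalytic cysteine and hands it, with an E3 ligase, to a substrate or to a growing chain. The E2 often decides which chain is built. Ube2n, paired with the catalytically inactive variants Ube2v1 or Ube2v2, builds K63-linked chains, and these are the chains that Merit40-containing complexes (BRISC and BRCA1-A) recognise and the deubiquitinase Brcc3 cuts. The comparison asks whether the E2 genes changed in HSCs that lack Merit40, encoded by Babam1.

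Values are log2 array signals made with RMA, 1 per gene and array, and differences are Merit40-/- minus WT on that scale. Babam1 read 4.29, 3.87 and 4.01 on the Merit40-/- arrays, against 7.91, 8.04 and 8.05 on the WT arrays, so the labels match the targeted gene. All 12 measured genes of the HSC and gate list, among them Slamf1 (CD150) and Kit, lay above the mark of low signal on every array. Of 10 measured lineage genes, 3 lay above it in both genotypes: Cd48, Itgam and Ly6g. On Merit40-/- replicate 1 the 24 skeletal muscle genes averaged 2.38 above their WT mean, with 21 of 24 above the mark, against 12 to 13 on each other array. On Merit40-/- replicate 3 the 12 osteoclast genes averaged 0.83 above theirs, with 8 of 12 above the mark, against 6 to 7 on each other array. That mean rested mainly on a few genes: Ctsk read 7.94 there against at most 3.89 elsewhere, and Acp5 7.91 against at most 5.19. Others read below their WT means there, among them Itgb3 (7.33, WT mean 7.70), Clcn7 (5.37, WT mean 5.68), Tcirg1 and Calcr. Leaving out Merit40-/- replicate 1 turned the sign of 7 members' differences: Ube2v1, given below, and Ube2a, Ube2cbp, Ube2d2b, Ube2e2, Ube2k and Ube2z, which then lay between -0.0118 and 0.0543. Leaving out Merit40-/- replicate 3 turned that of Ube2r2, to 0.0243.

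In WT HSCs, 31 of the 36 members gave a signal above the mark. The mark is 4.58, the 95th percentile of the mean WT signals of 1389 olfactory, vomeronasal and taste receptor genes, and 12669 of the 23185 genes lay above it. The same count of members lay above the corresponding mark in Merit40-/- HSCs, 31 of 36. The 5 members below it in WT were Ube2dnl1 at 2.87, Ube2dnl2 at 2.94, Ube2u at 2.95, Ube2v1 at 3.35 and Ube2ql1 at 4.08. In WT, 22 members lay among the top 25% of all signals and 13 among the top 10%. These ranks order probe set signals, which also depend on the probes, and do not order transcript amounts between genes. The highest WT signals were those of Ube2s at 11.19, Ube2d3 at 10.46 and Ube2l3 at 9.68.

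**Figure D1:**
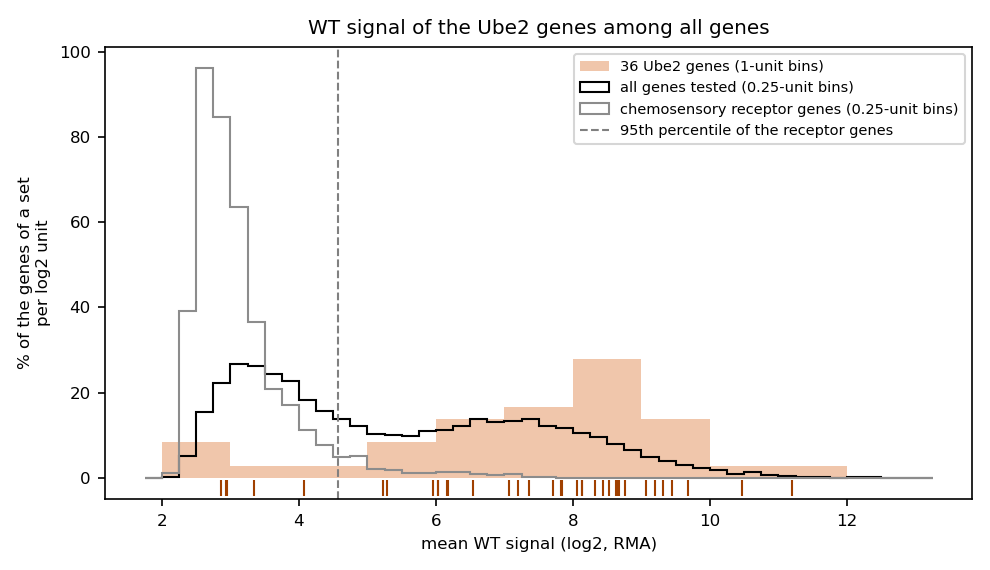
Mean WT signal (log2, RMA) on the x axis against the percentage of each set of genes per log2 unit, for the 36 Ube2 genes (bars and ticks), all genes tested and the chemosensory receptor genes (lines). Of the 36 ticks, 31 lie right of the dashed mark at 4.58.

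Of the 36 members, 0 passed the test over all genes (limma, adjusted p under 0.05), and 0 did with the variance of each gene left unmoderated. Over all genes 1 of 23185 passed, Babam1 (0.00431%). At an unadjusted p under 0.05 there were 2 members, 1 higher (Ube2h) and 1 lower (Ube2c), or 5.56%, beside 4.22% of all genes. That count was 1 without Merit40-/- replicate 1 and 1 without WT replicate 2. It was 3 without Merit40-/- replicate 2 and 3 without WT replicate 3, and 2 without either other array. With unmoderated variances it was 4. The shares of all genes at that p under these settings are not given here. The 6 arrays separated by genotype for 4 members, beside 9.05% of all genes: Ube2h was higher in every Merit40-/- array, and Ube2c, Ube2l3 and Ube2dnl1 were lower. With 1 array fewer, separation is easier for every gene. The count was then 6 without Merit40-/- replicate 1 (beside 19.6% of all genes), 7 without Merit40-/- replicate 2 (19.0%) and 8 without Merit40-/- replicate 3 (19.5%). It was 8 without WT replicate 1 (16.9%), 5 without WT replicate 2 (19.2%) and 11 without WT replicate 3 (19.3%).

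The differences of the members ranged from -0.52 (Ube2f) to 0.60 (Ube2h), with a median of -0.11, beside 0.0052 over all genes tested. Without Merit40-/- replicate 1 the median was -0.0603, beside 0.0082 over all genes, and without Merit40-/- replicate 2 it was -0.0638, beside 0.0036. Below 0 lay 26 members and above 0 lay 10, or 27.8%, beside 51.5% of all genes that were higher in Merit40-/-. Among the members above the mark in WT, 7 of 31 were above 0, beside 48.5% of all genes above it. On the arrays these offsets were small: relative to the WT mean, the members averaged -0.08, -0.07 and -0.02 on Merit40-/- replicates 1, 2 and 3, against -0.02, 0.06 and -0.04 on the WT arrays, so the genotypes overlapped. On the array scale, the 95% intervals of 33 of the 36 members stayed inside a 2-fold change, which says little of members below the mark, whose differences are compressed. The 3 exceptions were Ube2n, Ube2v1 and Ube2f.

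**Figure D2:**
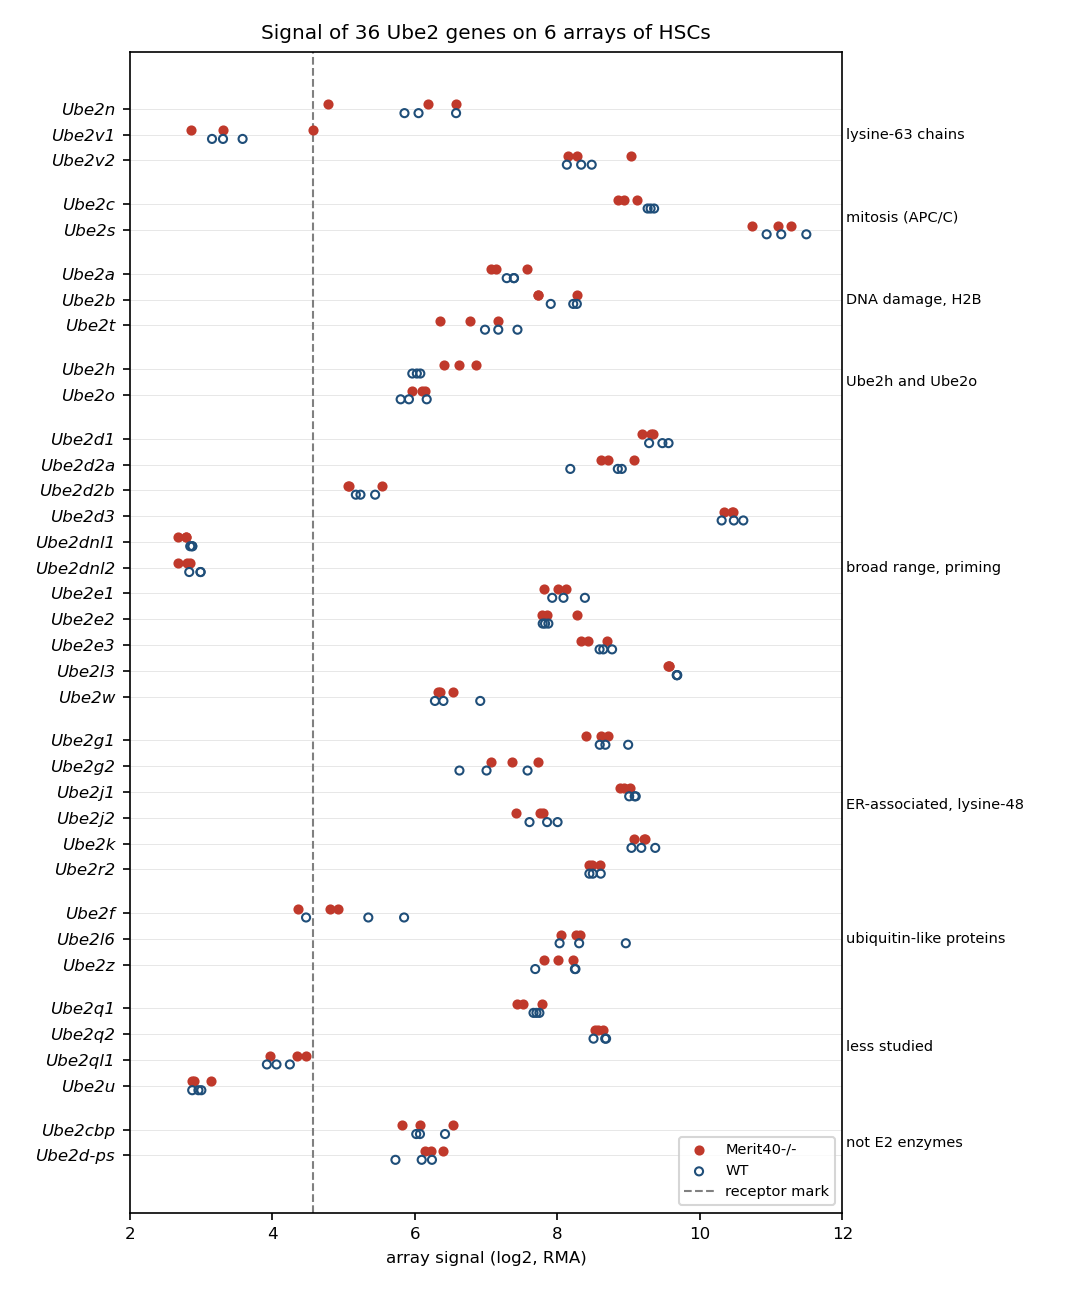
Signal (log2, RMA) of each member on the 3 Merit40-/- arrays (filled, upper points of a row) and the 3 WT arrays (open, lower points), grouped by role, with the receptor mark at 4.58 dashed. Points of the genotypes separate for Ube2h, Ube2c, Ube2l3 and Ube2dnl1, and those of Ube2n and Ube2v1 are the most scattered among the Merit40-/- arrays.

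The enzymes of K63-linked chains, closest in function to the complexes of Merit40, did not separate by genotype. Ube2n, the catalytic subunit, read 6.19, 4.79 and 6.58 on Merit40-/- replicates 1 to 3, against 5.86, 6.58 and 6.05 on the WT arrays. The single low value was that of Merit40-/- replicate 2, and the other Merit40-/- arrays lay within the WT range or level with its top. The difference was -0.31 (95% interval -1.29 to 0.66, limma unadjusted p = 0.484). Without Merit40-/- replicate 2 it was 0.22, so its sign rests on that array.

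Ube2v2, the partner that works with Ube2n in DNA damage tolerance, read 8.15, 9.03 and 8.27 on the Merit40-/- arrays, against 8.13, 8.34 and 8.48 on the WT arrays. Here Merit40-/- replicate 2 held the highest of the 6 values, on the array where Ube2n was lowest. The difference was 0.17 (95% interval -0.37 to 0.70), and -0.11 without that array.

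Ube2v1, the partner linked to inflammatory signalling, read 4.58, 3.31 and 2.86 on the Merit40-/- arrays, against 3.59, 3.16 and 3.31 on the WT arrays. Both genotype means lay below the mark, where log2 differences are compressed. The high value belonged to Merit40-/- replicate 1, the array with high skeletal muscle genes, and their part in it was not tested. The difference was 0.23 with all arrays and -0.26 without that one. Exact 2-sided permutation tests over the 6 arrays gave p = 0.9 for Ube2n, 0.9 for Ube2v1 and 0.8 for Ube2v2, where 0.1 is the smallest value that 3 against 3 allows.

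**Figure D3:**
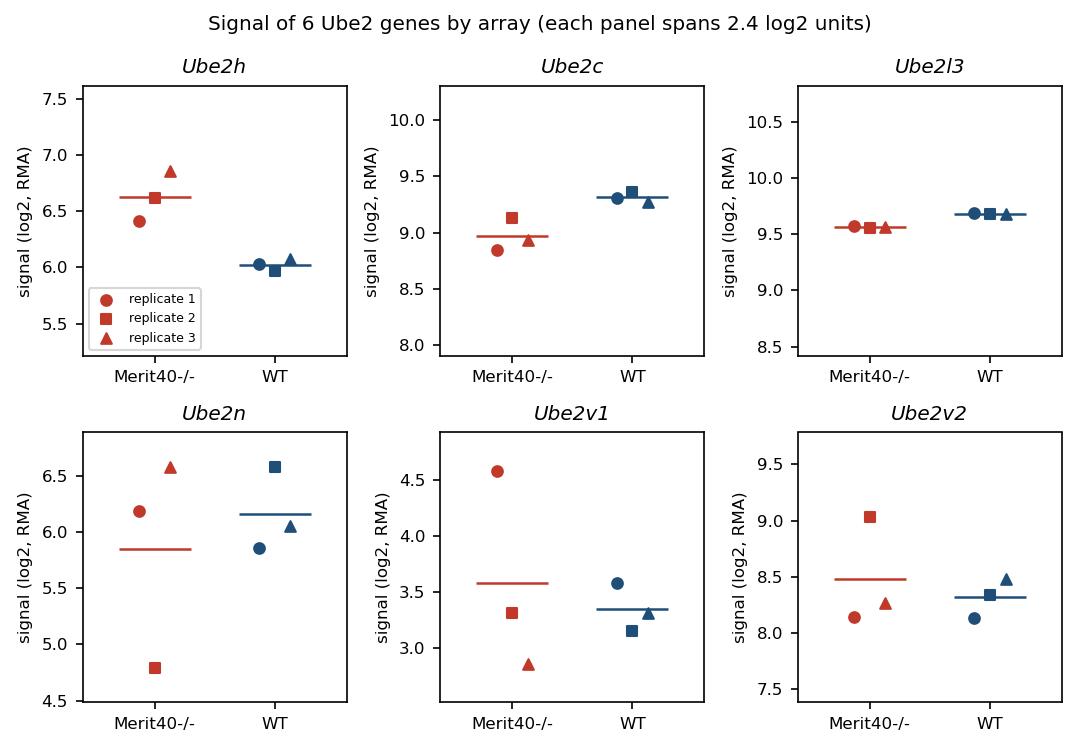
Signal (log2, RMA) of 6 members by genotype, with 1 marker shape per replicate number, lines at the means, and every panel spanning the same number of log2 units. The Merit40-/- arrays lie apart from the WT arrays for Ube2h, Ube2c and Ube2l3, while Ube2n, Ube2v1 and Ube2v2 each have 1 Merit40-/- array far from the others.

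Ube2h had the largest difference of all members and was higher in 3 of 3 Merit40-/- arrays. Ube2h is the E2 of the CTLH (GID) ligase complex and is known to increase during red cell maturation. It read 6.41, 6.62 and 6.86 on the Merit40-/- arrays, against 6.03, 5.97 and 6.08 on the WT arrays. The WT values lay close together and below all Merit40-/- values. The group levels were 6.63 ± 0.22 in Merit40-/- and 6.02 ± 0.06 in WT HSCs (SD, n = 3 each), a difference of 0.60 (SE 0.14), or 1.52-fold. Its unadjusted p was 0.00259 and its adjusted p 0.999 in limma, so it did not pass over all genes. Dropping single arrays gave differences of 0.49 to 0.71, the lowest without Merit40-/- replicate 3 and the highest without Merit40-/- replicate 1.

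Genes that work or move with Ube2h were read beside it. Of the CTLH ligase, Maea differed by -0.14 (SE 0.13) and Rmnd5a by -0.21 (SE 0.14), with overlapping arrays in both. Ube2o, a combined E2 and E3 that clears proteins in maturing red cells, read 5.96, 6.11 and 6.15 in Merit40-/-, against 6.17, 5.92 and 5.80 in WT, a difference of 0.11 (SE 0.13). In the erythroid list 3 of 20 measured genes were higher and 17 lower, or 15% higher, beside 51.5% of all genes. The median was -0.16. In limma 0 passed over all genes. An unadjusted p under 0.05 was reached by 4, all lower, or 20%, beside 4.22% of all genes. Relative to the WT mean, that list averaged -0.28, -0.07 and -0.23 on the Merit40-/- arrays, against 0.27, -0.06 and -0.21 on the WT arrays. The list overlapped between genotypes, with WT replicate 1 alone above the other arrays. Without WT replicate 1 the median of the list was -0.0637, with 7 genes higher and 13 lower.

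Ube2c and Ube2s work in sequence with the anaphase-promoting complex in mitosis, Ube2c starting and Ube2s extending the chains on its substrates. Ube2c read 8.85, 9.12 and 8.94 on the Merit40-/- arrays, against 9.31, 9.36 and 9.27 on the WT arrays. All 3 Merit40-/- values were below all WT values. The difference was -0.34 (SE 0.12), or 1.27-fold lower, with an unadjusted p of 0.0221 and an adjusted p of 0.999 in limma. Dropping single arrays gave differences of -0.42 to -0.28. The unadjusted p in limma was 0.0725 without Merit40-/- replicate 1, 0.0134 without Merit40-/- replicate 2 and 0.0546 without Merit40-/- replicate 3. It was 0.0530 without WT replicate 1, 0.0610 without WT replicate 2 and 0.0384 without WT replicate 3. Ube2s read 10.73, 11.10 and 11.28 in Merit40-/-, against 10.94, 11.14 and 11.49 in WT, and the groups overlapped (difference -0.16, SE 0.19). Without Merit40-/- replicate 1 its difference was -0.0038, and without WT replicate 3 it was -0.0061.

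Ube2t, the E2 that with Fancl attaches ubiquitin to Fancd2 in crosslink repair, read 6.78, 6.35 and 7.16 on the Merit40-/- arrays, against 7.17, 7.44 and 6.99 on the WT arrays. Its groups overlapped, with Merit40-/- replicate 3 inside the WT range (difference -0.43, SE 0.22, unadjusted p = 0.0781 in limma). The difference was -0.23 without Merit40-/- replicate 2. Without Merit40-/- replicate 3 it was -0.63. There the unadjusted p was 0.0137 and the adjusted p 0.986 in limma. Fancl differed by 0.08 (SE 0.16).

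The mitosis list, a mark of cycling cells, was lower in all 21 of its 21 measured genes, beside 11247 of all 23185 genes. In limma 0 of them passed over all genes, and 2 had an unadjusted p under 0.05, or 9.52%, beside 4.22% of all genes. The median of the list was -0.21. Its mean relative to WT was -0.36, 0.0088 and -0.35 on Merit40-/- replicates 1, 2 and 3, against 0.07, 0.05 and -0.12 on the WT arrays. The 2 arrays on which the list was low also read high in genes of other cell types. Skeletal muscle genes averaged 2.38 above WT on replicate 1, beside 0.11 on replicate 2. Osteoclast genes averaged 0.83 above on replicate 3, chiefly through Ctsk and Acp5, beside 0.0094 on replicate 2. Their part in the list's level was not tested. The median of the list was -0.152 without Merit40-/- replicate 1, with 21 of 21 genes lower, and -0.206 without Merit40-/- replicate 3, with 18 of 21 lower. Ube2c was below its WT range also on Merit40-/- replicate 2, where the list stood at its WT mean. The list overlapped between genotypes, with Merit40-/- replicate 2 above WT replicate 3. In sorted bulk cells, fewer dividing cells, less RNA per dividing cell, RNA of other cell types and spread between arrays cannot be told apart.

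**Figure D4:**
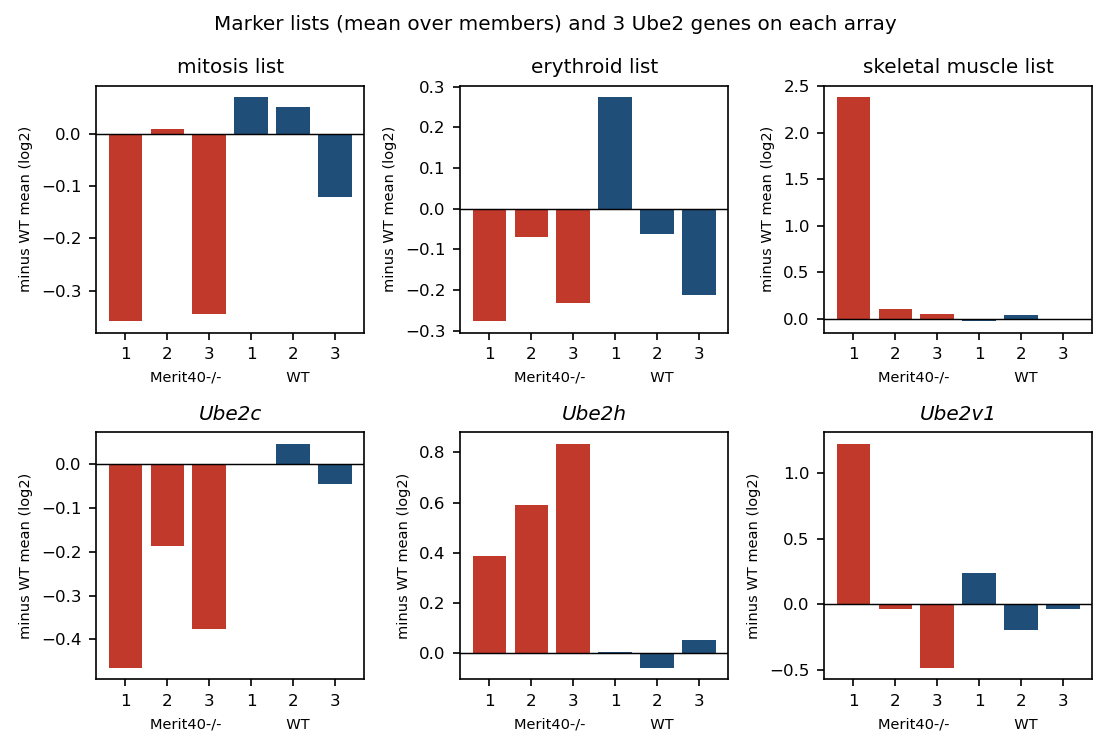
Mean over the mitosis, erythroid and skeletal muscle lists (upper row) and the signal of Ube2c, Ube2h and Ube2v1 (lower row), each minus its WT mean (log2), on the Merit40-/- arrays (left bars, replicates 1 to 3) and the WT arrays (right bars). Each panel has its own scale. The muscle list is high on Merit40-/- replicate 1 at 2.38, and Ube2c is below and Ube2h above WT on all 3 Merit40-/- arrays.

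The promoters of the division-linked Ube2c, Ube2t and Ube2s, and of Ube2h, the member with the largest difference, are shown. Of these, the arrays separated by genotype for Ube2c and Ube2h only. Each window is the 250 bases before the RefSeq start (GRCm38.p6, the most upstream start where several are listed), 5′ to 3′ on the strand of the gene. Capitals mark CCAAT and the cell cycle homology motif TTTGAA on either strand.
Ube2c (chr2:164769679-164769928, plus strand): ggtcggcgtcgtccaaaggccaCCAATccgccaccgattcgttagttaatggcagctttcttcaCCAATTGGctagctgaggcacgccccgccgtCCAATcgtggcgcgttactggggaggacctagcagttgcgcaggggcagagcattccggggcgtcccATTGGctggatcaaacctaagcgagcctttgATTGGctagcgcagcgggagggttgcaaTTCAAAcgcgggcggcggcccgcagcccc
Ube2t (chr1:134962315-134962564, plus strand): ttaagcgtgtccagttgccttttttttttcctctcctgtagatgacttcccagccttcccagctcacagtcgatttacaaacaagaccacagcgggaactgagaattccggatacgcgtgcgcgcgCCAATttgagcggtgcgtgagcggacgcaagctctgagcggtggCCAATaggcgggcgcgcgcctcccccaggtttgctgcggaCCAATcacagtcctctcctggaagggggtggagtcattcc
Ube2s (chr7:4812341-4812590, minus strand): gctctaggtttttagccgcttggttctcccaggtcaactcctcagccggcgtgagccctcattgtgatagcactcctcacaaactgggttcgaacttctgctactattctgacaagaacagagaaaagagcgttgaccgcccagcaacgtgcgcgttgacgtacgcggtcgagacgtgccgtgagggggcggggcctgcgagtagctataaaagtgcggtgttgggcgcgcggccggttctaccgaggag
Ube2h (chr6:30304540-30304789, minus strand): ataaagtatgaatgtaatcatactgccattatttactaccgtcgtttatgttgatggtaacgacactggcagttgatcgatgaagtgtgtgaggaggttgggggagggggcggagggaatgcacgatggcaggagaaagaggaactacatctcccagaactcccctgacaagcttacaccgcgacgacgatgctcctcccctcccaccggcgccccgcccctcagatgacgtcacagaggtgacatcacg

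Ube2c held 6 CCAAT matches, 2 of which overlap each other, and 1 TTTGAA match on the opposite strand, between 29 and 24 bases before the start. Ube2t held 3 CCAAT matches and no TTTGAA match, and the windows of Ube2s and Ube2h held neither motif. Among 17452 measured genes with a window, 36.0% held CCAAT at least once, 3.56% at least 3 times and 0.074% at least 6 times, and 14.3% held TTTGAA. Of the 30 members with a window in the table, 9 held CCAAT and 4 held TTTGAA. The factor NF-Y is known to bind CCAAT, and complexes that time late cell cycle genes the homology motif. A match describes the letters of the window and not a bound site.

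Ube2a and Ube2b are near-identical enzymes that act with Rad18 on PCNA and with Rnf20 and Rnf40 on histone H2B. Ube2a differed by -0.09 (SE 0.15), or 0.0019 without Merit40-/- replicate 1, and Ube2b by -0.23 (SE 0.18), with overlapping arrays. Rnf40 read 6.14, 6.33 and 6.10 in Merit40-/-, against 6.42, 6.45 and 6.67 in WT, all lower in Merit40-/- (difference -0.32, unadjusted p = 0.0357 and adjusted p = 0.999 in limma). Rad18 differed by 0.05 (SE 0.16).

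Among the 11 broad-range and priming E2s, which serve many ligases and often place the first ubiquitin, 9 were below and 2 above 0, from -0.18 (Ube2e3) to 0.15 (Ube2d2a), and none reached an unadjusted p under 0.05 in limma. The Ube2d enzymes, the most general E2s, differed little: Ube2d1 by -0.16, Ube2d2a by 0.15 (-0.0789 without WT replicate 3), Ube2d2b by -0.06 and Ube2d3 by -0.05. Close copies such as these may share probe sequence, which was not checked. Ube2e2 read 8.28 on Merit40-/- replicate 1, against 7.79 to 7.87 on the other 5 arrays. That array had high muscle genes, whose part in the Ube2e2 value was not tested. The difference of Ube2e2 was 0.14 with all arrays and -0.0118 without that one. Ube2w, which modifies protein N-termini, differed by -0.13 (SE 0.18). Ube2dnl1 separated by genotype only at low signal, at 2.79, 2.79 and 2.68 in Merit40-/-, against 2.88, 2.88 and 2.85 in WT.

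Ube2l3, which works with HECT and RBR ligases, showed the tightest values of the family. It read 9.57, 9.55 and 9.57 on the Merit40-/- arrays, against 9.68, 9.68 and 9.68 on the WT arrays, so that all Merit40-/- values were slightly lower. The difference was -0.12, or 1.08-fold. Its SE was 0.11 after limma's moderation, which pulls the variance of each gene toward that of the others, and its unadjusted p was 0.299. Without moderation its SE was 0.0070 and its adjusted p 0.432 in limma.

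The 6 E2s of K48-linked chains and of protein degradation at the endoplasmic reticulum had 5 members below 0 and 1 above, and none reached an unadjusted p under 0.05 in limma. Ube2g2 read 7.06, 7.73 and 7.36 in Merit40-/-, against 7.58, 6.63 and 7.01 in WT (difference 0.31, SE 0.26), the widest WT spread of this group. Ube2g1 differed by -0.18 (SE 0.15), and the membrane-anchored Ube2j1 and Ube2j2 by -0.12 (SE 0.11) and -0.16 (SE 0.16). Ube2k, which builds K48-linked chains by itself, differed by -0.03 (SE 0.13), and Ube2r2, an E2 of cullin ligases, by -0.01 (SE 0.12).

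The 3 measured E2s of ubiquitin-like proteins were all below 0 with overlapping arrays. Ube2f, which transfers NEDD8 to cullin-5, read 4.82, 4.93 and 4.36 on the Merit40-/- arrays, against 5.35, 5.85 and 4.48 on the WT arrays. WT replicate 3 lay among the Merit40-/- values, and 1 array of each genotype lay below the mark of its genotype. The difference was -0.52 (SE 0.33, 95% interval -1.27 to 0.22, unadjusted p = 0.146 in limma), the most negative of all members with all 6 arrays. Without WT replicate 2 it was -0.21, and without WT replicate 3 it was -0.90 (unadjusted p = 0.00563 and adjusted p = 1 in limma). Ube2l6, the E2 of the interferon-induced modifier ISG15, read 8.26, 8.05 and 8.32 in Merit40-/-, against 8.03, 8.31 and 8.96 in WT (difference -0.23, SE 0.23), and its difference was 0.0381 without WT replicate 3. On WT replicate 3, where Ube2l6 read highest, the interferon list averaged -0.04. Its genes differed: Isg15 (5.03) and Ifit2 (8.27) read the highest of their 6 values there, and Irf7 (6.30) and Rsad2 (5.71) the lowest. A link to Ube2l6 was not tested. Ube2z, loaded by Uba6, differed by -0.05 (SE 0.19).

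The less studied Ube2q1, Ube2q2, Ube2ql1 and Ube2u differed by -0.13, -0.04, 0.18 and 0.03, and the last 2 lay below the mark in both genotypes. Ube2cbp differed by -0.03 (SE 0.20) and the transcript Ube2d-ps by 0.24 (SE 0.16).

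**Figure D5:**
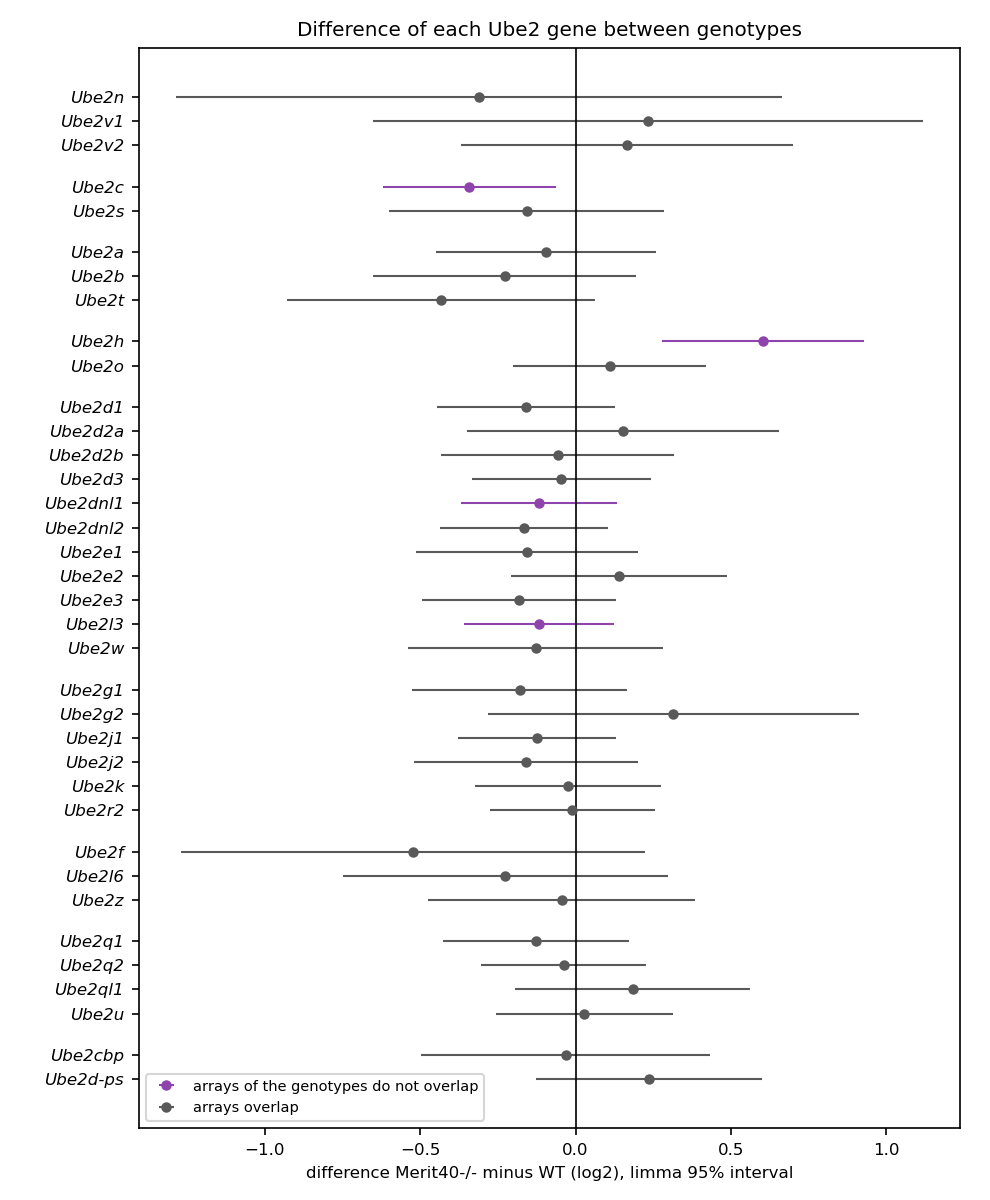
Difference of each member, Merit40-/- minus WT (log2), with limma's 95% interval, and members whose arrays separate by genotype in purple. The intervals of Ube2h and Ube2c leave out 0, and those of Ube2n, Ube2v1 and Ube2f are the widest.

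The members varied unequally between arrays of 1 genotype. In WT the SD over 3 arrays was lowest for Ube2l3 at 0.0039, Ube2dnl1 at 0.016 and Ube2e2 at 0.04. It was highest for Ube2f at 0.70, Ube2g2 at 0.48 and Ube2l6 at 0.48. The median pooled SD within genotypes was 0.197 for the members, beside 0.183 for all genes. Each array held the highest of the 6 values for 3 to 9 members. WT replicate 2 held the most, 9 of 36, beside 15% of all genes. Each array held the lowest value for 3 to 9 members. Merit40-/- replicate 2 held the most, 9 of 36, beside 16.8% of all genes.

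Other genes of the conjugation pathway were compared in the same fit. Of 10 listed E1 enzymes 7 were measured, with 6 above and 1 below 0, or 85.7% above, beside 51.5% of all genes. Their median was 0.03, with differences from -0.06 (Nae1) to 0.08 (Uba6). Without Merit40-/- replicate 1, and likewise without WT replicate 1, 3 lay above and 4 below 0. Of 12 listed ubiquitin and ubiquitin-like genes 6 were measured, with 3 on each side of 0 and Urm1 lowest at -0.43 (SE 0.24). Of the E2-fold genes without a Ube2 symbol, 8 of 9 were measured and 4 were above 0. Among them the cullin ligase E2 Cdc34 was lower in all 3 Merit40-/- arrays (8.14, 8.08 and 7.94, against 8.20, 8.19 and 8.46 in WT), with a difference of -0.22 and an unadjusted p of 0.121 in limma. In these 3 lists 0 genes passed over all genes and 0 reached an unadjusted p under 0.05 in limma.

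The 18 E3 ligases and partners of the K63-chain E2s had 8 genes above and 10 below 0 and a median of -0.04. In limma 0 were past the adjusted threshold. An unadjusted p under 0.05 was reached by 2, or 11.1%, beside 4.22% of all genes. Rnf8, which with Ube2n ubiquitinates chromatin at DNA breaks, read 6.63, 6.54 and 6.48 in Merit40-/-, against 6.91, 6.92 and 6.87 in WT. The arrays separated, at a difference of -0.35 (SE 0.11, unadjusted p = 0.0130 and adjusted p = 0.999 in limma). Birc3, a ligase of inflammatory signalling, differed by 0.43 (SE 0.16, unadjusted p = 0.0251 in limma) with overlapping arrays. Rnf168, which extends the signal of Rnf8, differed by -0.19 (SE 0.14), Traf6 by -0.13 (SE 0.16), and Otub1, which binds and inhibits Ube2n, by 0.07 (SE 0.13). The 25 measured partners of the other members had a median of 0.02, with 13 above and 12 below 0. In limma 0 were past the adjusted threshold. Rnf40 alone had an unadjusted p under 0.05, or 4%, beside 4.22% of all genes.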

How the data were processed

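Per the submitters' processing notes, the authors made the deposited log2 values with RMA and the affy package (versions, chip definition and build not given in the sources used here). Per the labels' protocols, 50 ng of total RNA was amplified with the NuGEN Pico kit. RMA gives the probe intensities of the arrays 1 distribution, so overall shifts in RNA are removed, and compresses differences of dim genes. The values per gene still differed slightly, with array medians from 4.911 (WT replicate 2) to 4.959 (WT replicate 1). The table held 25206 probe sets named by Entrez Gene number, 2021 of them unnamed here. The 23185 with 1 symbol were fitted with limma 3.58.1 in R 4.3.3 (genotype only, 2-sided, Benjamini-Hochberg over all of them, threshold 0.05), and the fit was tested on simulated data. The number of arrays limits precision: the median 95% interval of a member was ±0.355.

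Values of every array are given for the K63-chain E2s, Ube2c, Ube2t, Ube2s and members with separated arrays or an unadjusted p under 0.05. Further genes were picked with their values in view. The members and lists were chosen with earlier results of these data known. Alternatives were a replicate block, a trend, array weights, 2 scalings, 2 filters, all probe sets and each array left out. Promoters are RefSeq's, for 30 of 36 members, and no protein sequence was used. Some genes of the family are not reported here.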

Additional observations from a re-analysis of the deposited data

How the results depend on the processing

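Under every alternative run, 0 members passed the adjusted threshold in limma, the threshold of 0.10 included, with 1 to 4 members at an unadjusted p under 0.05. The share of all genes at that unadjusted p under the alternatives is not given here. Over all genes 1 passed throughout, except 0 with unmoderated variances, an alternative added after the data were seen, where 4 members had an unadjusted p under 0.05. Leaving out each array in turn gave 1 to 3 members at an unadjusted p under 0.05, 5 to 11 with separated arrays, 11 to 15 above 0, and median member differences of -0.111 to -0.0603. Separated arrays came to 16.9% to 19.6% of all genes under the same settings. With 1 array left out, the sign turned in 15 of the 36 members. Their lowest and highest differences over single arrays left out were -0.675 and 0.221 (Ube2n), -0.263 and 0.592 (Ube2v1), -0.108 and 0.335 (Ube2v2), -0.25 and 0.0019 (Ube2a), -0.231 and 0.13 (Ube2cbp), -0.0789 and 0.282 (Ube2d2a), -0.214 and 0.0232 (Ube2d2b), -0.126 and 0.0263 (Ube2d3), -0.0118 and 0.232 (Ube2e2), -0.103 and 0.0634 (Ube2k), -0.427 and 0.0381 (Ube2l6), -0.0578 and 0.0351 (Ube2r2), -0.0567 and 0.0774 (Ube2u), -0.255 and 0.0632 (Ube2w), and -0.232 and 0.0543 (Ube2z). Over all alternatives the sign turned in 26 of 531 comparisons of a member, 25 of them with 1 array left out and 1 with quantile normalization (Ube2u, -0.000842). The 531 are not a measure of stability. The replicate block, trend, filters, all probe sets and unmoderated variances leave the difference of a gene unchanged by design, so no sign could turn there. The count of members above the mark of low signal in WT was 31 also with the median of all genes as the mark. Without Ube2cbp and Ube2d-ps, also added later, 9 members were above 0 and 25 below.

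Same-numbered arrays of the genotypes did not deviate together (r of -0.0475, -0.0027 and 0.0439 over all genes), so the numbers were not taken as pairs. With the replicate block 0 members passed in limma and 3 had an unadjusted p under 0.05. These were Ube2h, Ube2c and Ube2f, the last at an unadjusted p of 0.0263 in limma, against 0.146 without the block. With equal groups the block cannot change a difference, so the median of -0.106 was unchanged by design. Dim probe sets, such as that of Ube2v1, cannot show small changes at this signal.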

Other observations

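Ube2l3 had the smallest pooled SD within genotypes of all 23185 genes tested (0.00855, with 0 genes below it), while Ube2n lay at the 99.2 percentile (0.717) and Ube2v1 at the 98.8 percentile (0.646). Moderation raised the SD used for Ube2l3 to 0.129, so its difference of -0.12, which was lower in 3 of 3 Merit40-/- arrays, had an unadjusted p of 0.299 in limma with moderation and of 7.45e-05 without it (adjusted p = 0.432). With 3 arrays a group, some gene must show the smallest spread, and no cause was tested.

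On Merit40-/- replicate 2 the members that share K63-chain work read in opposite directions: Ube2n was 1.37 below and Ube2v2 0.72 above its WT mean. Among the 30 members with a promoter window, Ube2c alone held at least 6 CCAAT matches, which 13 of 17452 measured genes share.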
